A study of Mus musculus with 32 samples.

Results

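The long H3K9me3 domains described here are stretches of at least 30 kb in which peaks of histone H3 lysine 9 trimethylation follow one another without a break once the peak lists are laid over each other. They were found by taking every autosomal peak of at least 10 kb from the 8 deposited peak lists, merging the peaks that overlapped over the lists, and keeping the merged regions of at least 30 kb. This gave 683 domains of the 7821 regions merged from peaks of at least 10 kb, against 121849 autosomal regions when peaks of any length were merged. The domains were chosen by the peak calls themselves, so the coverage values below describe the chosen regions and are not tests.

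H3K9me3 was measured by ChIP-seq, which sequences DNA bound to an immunoprecipitated protein, in gonocytes, the germ cells of the fetal and newborn testis. All animals carried the Mvh-Venus transgene, a fluorescent reporter used to isolate male germ cells. Mvh is another name of Ddx4, a germ cell RNA helicase gene. Animals were heterozygous for Morc1 (Morc1 (+/-), called het) or homozygous knockouts (Morc1 (-/-), called KO), and no Morc1 (+/+) group enters the comparisons, so the reference carries 1 mutant allele. Cells were taken at E13.5 and E16.5 before birth and at P0 and P3 after it. Each of the 8 groups had 2 H3K9me3 samples but was represented by 1 peak list, so no value has a replicate error, no p-value was computed, and differences between lists cannot be set against the spread between animals. The lists give only the start and end of each peak, so the labelled cell type could not be checked against its markers. Read depth is unknown, and the length called moves with it.

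H3K9me3 is laid down by the SETDB1 and SUV39H methyltransferases and is bound by HP1 proteins. It marks heterochromatin, where transposons, satellite repeats and clustered gene families are held silent. MORC1 is an ATPase of the germ line known for its part in transposon silencing in male germ cells during the fetal period, when DNA methylation is first erased and then laid down again.

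The starts of genes inside the domains show what kind of gene is covered, and the following promoter windows were chosen because their genes recur in the results. Each window runs from 250 bases before to 50 bases after a gene start, in RefSeq coordinates of build GRCm38.p6, and is written 5′ to 3′ on the strand of the gene with every CG dinucleotide in capitals. Ddx4 and Slc38a9 lie in 1 domain on chromosome 13, and Ddx4 had the most CG of any gene start inside a domain. Snrpn, the imprinted splicing factor gene of the Prader-Willi region, has several starts, and 3 of them are shown. The vomeronasal receptor gene Vmn2r108 has no CG in its window and the olfactory receptor gene Olfr1497 has 1, which is usual for gene starts inside the domains.
Ddx4, chr13:112652261-112652560, minus strand: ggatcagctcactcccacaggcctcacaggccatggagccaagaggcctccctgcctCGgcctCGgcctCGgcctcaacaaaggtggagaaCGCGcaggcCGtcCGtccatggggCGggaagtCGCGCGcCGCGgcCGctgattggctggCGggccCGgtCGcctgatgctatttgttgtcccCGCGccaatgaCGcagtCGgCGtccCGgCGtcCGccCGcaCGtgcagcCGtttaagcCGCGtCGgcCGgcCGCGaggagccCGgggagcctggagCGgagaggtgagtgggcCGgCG
Slc38a9, chr13:112660516-112660815, plus strand: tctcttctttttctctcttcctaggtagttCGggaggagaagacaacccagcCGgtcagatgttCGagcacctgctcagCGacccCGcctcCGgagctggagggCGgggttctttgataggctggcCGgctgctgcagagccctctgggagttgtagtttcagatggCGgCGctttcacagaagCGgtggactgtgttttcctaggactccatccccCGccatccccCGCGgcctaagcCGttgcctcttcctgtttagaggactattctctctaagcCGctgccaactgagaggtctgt
Snrpn, chr7:60005150-60005449, minus strand: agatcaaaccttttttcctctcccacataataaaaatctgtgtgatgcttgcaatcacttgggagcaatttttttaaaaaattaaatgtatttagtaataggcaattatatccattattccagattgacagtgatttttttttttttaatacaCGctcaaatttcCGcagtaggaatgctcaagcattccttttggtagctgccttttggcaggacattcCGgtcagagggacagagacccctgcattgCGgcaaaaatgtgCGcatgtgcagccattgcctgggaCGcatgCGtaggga
Snrpn, chr7:60047929-60048228, minus strand: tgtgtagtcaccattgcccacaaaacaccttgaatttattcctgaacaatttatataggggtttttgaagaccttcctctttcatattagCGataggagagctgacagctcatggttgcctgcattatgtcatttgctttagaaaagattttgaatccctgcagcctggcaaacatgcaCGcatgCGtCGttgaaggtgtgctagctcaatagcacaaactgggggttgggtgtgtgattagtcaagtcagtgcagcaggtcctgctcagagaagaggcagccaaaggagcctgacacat
Snrpn, chr7:60140176-60140475, minus strand: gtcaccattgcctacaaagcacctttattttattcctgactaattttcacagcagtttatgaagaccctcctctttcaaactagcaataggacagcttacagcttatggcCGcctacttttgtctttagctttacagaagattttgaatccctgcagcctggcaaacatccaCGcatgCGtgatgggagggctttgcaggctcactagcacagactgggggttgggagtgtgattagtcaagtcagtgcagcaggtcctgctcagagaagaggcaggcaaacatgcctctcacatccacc
Vmn2r108, chr17:20481187-20481486, minus strand: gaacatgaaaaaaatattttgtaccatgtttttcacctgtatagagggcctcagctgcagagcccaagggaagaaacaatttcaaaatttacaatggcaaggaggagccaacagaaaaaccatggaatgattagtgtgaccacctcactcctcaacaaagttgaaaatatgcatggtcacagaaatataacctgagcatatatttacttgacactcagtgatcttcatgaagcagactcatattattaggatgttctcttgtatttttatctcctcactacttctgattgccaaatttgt
Olfr1497, chr19:13795560-13795859, minus strand: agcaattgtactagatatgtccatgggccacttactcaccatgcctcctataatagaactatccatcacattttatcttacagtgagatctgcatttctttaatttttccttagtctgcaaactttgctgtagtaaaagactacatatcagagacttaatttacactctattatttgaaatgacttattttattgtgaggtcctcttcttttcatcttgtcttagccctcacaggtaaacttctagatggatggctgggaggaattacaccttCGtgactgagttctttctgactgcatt

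The domains also held microRNA genes, and 9 of these belonged to 1 family. Of 919 autosomal hairpins in the RefSeq microRNA table, 12 (1.31%) lay in domains, and 9 of the 12 were Mir344 hairpins. Mir6370, listed with its mature sequence alone, also lay in a domain. The table lists 13 Mir344 hairpins, all on the minus strand of chromosome 7. The mature sequences below are written 5′ to 3′ with the seed, bases 2 to 8, in capitals. The seed is the part of a microRNA that pairs with its target. The first 5 share the seed GUCAGGC, the next 2 share GAUCUAG, and the last 4 have seeds of their own. Other mature Mir344 sequences in domains have different seeds and are not printed: mmu-miR-344d-2-5p (GUCUGGU), mmu-miR-344f-5p (GUCAGUC) and mmu-miR-344i (AGUCAGG).
mmu-miR-344-5p: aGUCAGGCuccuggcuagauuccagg
mmu-miR-344b-5p: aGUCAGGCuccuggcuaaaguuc
mmu-miR-344c-5p: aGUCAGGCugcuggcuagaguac
mmu-miR-344d-1-5p: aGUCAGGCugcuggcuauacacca
mmu-miR-344g-5p: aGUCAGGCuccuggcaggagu
mmu-miR-344-3p: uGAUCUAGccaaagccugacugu
mmu-miR-344c-3p: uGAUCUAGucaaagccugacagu
mmu-miR-344b-3p: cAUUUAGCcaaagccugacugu
mmu-miR-344d-3p: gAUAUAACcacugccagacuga
mmu-miR-344f-3p: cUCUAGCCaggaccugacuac
mmu-miR-344g-3p: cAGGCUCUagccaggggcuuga

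Domain length ranged from 30.02 kb to 179.4 kb, with a median of 38.4 kb and quartiles of 33.3 and 50 kb. Together the domains held 30.57 Mb. Of the 683, 171 reached 50 kb and 13 reached 100 kb. The length of 30 kb cuts through a continuous range of sizes, with 122 of the 683 between 30 and 32 kb. Just inside stood chr8:52067654-52097676 at 30.02 kb, chr17:38191688-38221716 at 30.03 kb and chr1:26505135-26535172 at 30.04 kb. Just outside stood chr14:38139878-38169828 and chr3:70903866-70933819, both at 29.95 kb, and chr6:59788640-59818606 at 29.97 kb. A domain is a merged region, and not every list called it in 1 piece. In 44 domains all 8 lists held an unbroken stretch of at least 30 kb, in 161 exactly 1 list did, and in 75 no single list did.

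The domains were unevenly spread over the chromosomes. Chromosome 7 held 72 domains, or 4.95 per 10 Mb, and 2.48% of its span. Chromosomes 17 (4.32 per 10 Mb), 3 (4.19), 15 (4.14) and 1 (4.045, with 79 domains) followed. At the other end, chromosome 11 had 8 domains (0.656 per 10 Mb, 0.241% of its span), chromosome 2 had 16 (0.879) and chromosome 18 had 9 (0.993). The chromosomes richest in domains also had more of their span called: the mean over the lists was 11.2% on chromosome 7, 12.3% on 17, 13.0% on 3, 11.7% on 15 and 13.1% on 1, against 7.19% on 11, 8.355% on 2 and 9.645% on 18. The called share includes the domains themselves.

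Domains lay close to one another. With neighbours joined when at most 1 Mb apart, 621 of 683 domains (90.9%) had a neighbour and formed 111 clusters of 2 or more, and 62 domains stood alone. Of 664 adjacent pairs, 219 lay within 50 kb and 90 within 10 kb, and the median distance was 105.0 kb. The 50 clusters of 5 or more domains held 453 domains. One of the 2 largest was chr7:59617994-62840309, with 22 domains that filled 42.5% of 3.22 Mb. It spans Snrpn, Snurf, Ndn, Magel2, Mkrn3 and Peg12, imprinted genes of the Prader-Willi region, and the Mir344 family. The other, chr17:18217340-20925106, also had 22 domains and filled 38.1% of 2.71 Mb among vomeronasal and formyl peptide receptor genes. The densest of the large clusters, chr3:42189658-44142417, held 19 domains over 51.7% of 1.95 Mb and contained no protein-coding gene.

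In the chromosome 7 cluster the median domain coverage was 98.9% and 99.8% in the E13.5 het and KO lists, 97.35% and 97.3% at E16.5, 91.0% and 92.4% at P0, and 78.7% and 85.2% at P3. Coverage was thus highest at E13.5 and lowest at P3 in both genotypes. The vomeronasal cluster on chromosome 17 had medians of 92.4% and 99.4% at E13.5, 96.3% and 95% at E16.5, 84.7% and 89.4% at P0, and 75% and 74.4% at P3. There the KO list was above the het list at E13.5 and P0 and slightly below it at E16.5 and P3. The gene-free cluster on chromosome 3 had 94.4% and 94.0%, then 99.3% and 98.9%, then 83.65% and 82.8%, and at P3 71.9% and 77.2%. Its genotypes lay within 1 point of each other until P0. For single clusters no spread between animals is known, so these gaps are not ranked.

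Most domains lay away from protein-coding genes. Of the 683, 533 overlapped none in the RefSeq gene table, and in 456 the nearest such gene was over 100 kb away, in 277 over 500 kb. The median distance of these 533 domains to the nearest protein-coding gene was 534.7 kb and the largest 2093 kb. Gene bodies made up 8.40% of domain base pairs, 10.7% of the base pairs in domains of at least 50 kb, 13.3% in the merged regions of 10 to 30 kb, and 40% of the autosomes. The domains overlapped 203 of 20665 protein-coding genes (0.982%), 144 of them wholly inside a domain. By count of regions, 150 domains (22.0%) touched a protein-coding gene, against 1400 (19.6%) of the shorter regions. Wholly inside gene bodies lay 20 domains (2.93%).

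The genes inside belonged largely to clustered families of related genes, whose likeness in sequence was not measured. How reads that fit several places were handled is not given in the sources used here, so coverage at closely similar copies is uncertain. Olfactory receptors, the odorant receptors of the nose, supplied 58 of 1104 genes (5.25%) in 32 domains. Vomeronasal receptors, which detect pheromones, supplied 19 of 231 type 1 genes (8.225%) and 18 of 123 type 2 genes (14.6%). Immunoglobulin heavy chain variable segments, joined by recombination in B cells, made up all 29 of 489 antigen receptor segments found, in 10 domains. The share of a family inside domains was largest for Skint, thymus and skin genes with immunoglobulin domains, at 6 of 11 genes (54.55%) in 13 domains. It was 8 of 25 (32%) for the prolactin family, hormones made mainly in pituitary and placenta.

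Other families had few members inside. The Klr receptors of natural killer cells had 4 of 29 (Klra4, Klra5, Klra6 and Klra17), the Psg and Ceacam adhesion glycoproteins 3 of 28, and the clustered protocadherins, neuronal adhesion molecules, 5 of 57. Cytochromes P450 had 3 of 99, all drug-metabolizing Cyp3a genes (Cyp3a11, Cyp3a25 and Cyp3a59), and the keratin list had 4 of 112, all keratin-associated protein genes. Zinc finger genes of the Zfp and Zscan names, many of which encode transcriptional repressors, had 4 of 407 (0.983%), the same share as all protein-coding genes. Not one member was inside a domain among 33 other cadherins and protocadherins, 26 glutamate receptors, 24 Mup genes, 22 UDP glucuronosyltransferases, 21 Ms4a genes, 20 Lrrtm, Lrrc4 and Lrfn genes, 15 trace amine receptors and 14 ephrin receptors. Of 17 genes for H3K9 methylation and its readers none was covered, and of 18 germ line genes only Ddx4. Cadherin genes such as Cdh6 and Cdh9 were nonetheless the nearest neighbours of several domains.

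The gene families differed in the stage of their coverage. Domains over immunoglobulin segments had medians of 97.0% and 99.1% in the E13.5 het and KO lists, 92.5% and 95.5% at E16.5, 86.8% and 94.6% at P0, and 68.0% and 85.6% at P3. The KO list was higher at every stage, and the gap between the medians was largest at P3, where 5 of the 10 domains were at least 10 points higher in KO and none in het, beside 31.1 and 16.3 percent of all 7821 merged regions. Skint domains had 98.3% and 99.6% at E13.5, 95.65% and 96.15% at E16.5, 92.9% and 90.9% at P0, and 76.2% and 79.5% at P3. Prolactin domains had 88.9% and 93.3% at E13.5, 99.4% and 96.1% at E16.5, 89.1% and 91.0% at P0, and 71.2% and 85.5% at P3. E16.5 was the highest stage, as in the domains as a whole, and 4 of 5 prolactin domains were at least 10 points higher in KO at P3, beside the same 31.1 percent. The 3 Cyp3a domains kept medians of 85.1% to 100% up to P0 and stood at 47.7% and 53.0% at P3.

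Gene starts inside the domains were poor in CG. The RefSeq promoter table held 185 windows, of 172 genes, whose gene start lay inside a domain, in 124 domains. Their median was 1 CG in 300 bases (quartiles 0 and 2), against 7 over all 31396 autosomal windows and 14 over those of protein-coding genes. No CG was found in 30.3% of the windows in domains and in 5.25% of all windows, and at least 10 in 3.78% against 44.0%. Shorter merged regions were similar, with a median of 1 and 6.33% with at least 10. The letters TATAAA, searched on both strands and sharing no base with a CG, occurred in 40.5% of windows in domains, 32.9% in shorter regions and 13.6% of all. The median share of G and C bases in these windows was 37.0%, 41.3% and 53.0%. The part of base composition in the TATAAA shares was not tested. The windows at the high end were Ddx4 with 38 CG, the lncRNA genes Gm30645 and Gm46244 with 18, and Slc38a9 with 16.

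**Figure D1:**
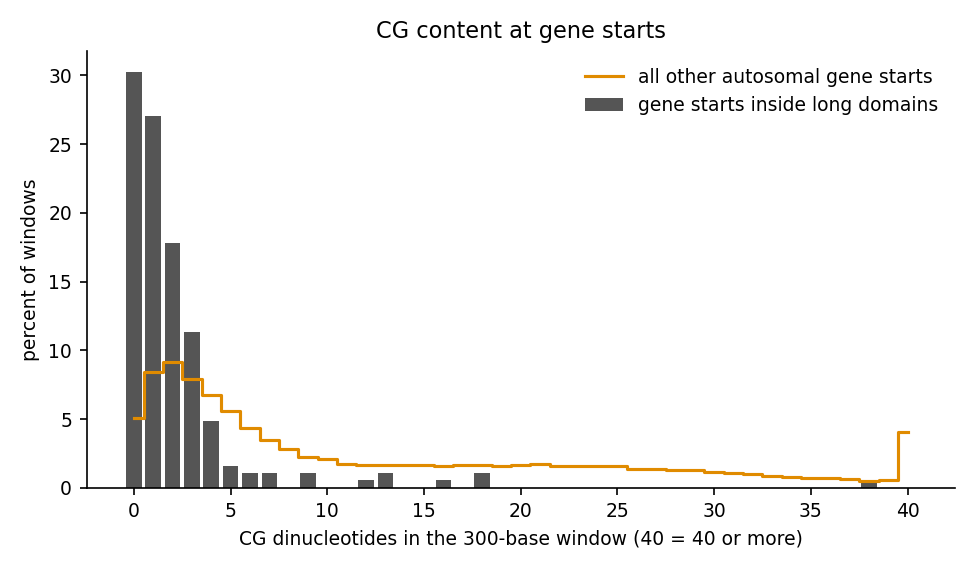
Number of CG dinucleotides (horizontal axis) in the 300-base windows at gene starts, as the percent of windows with each number (vertical axis). Bars are the 185 windows whose gene start lies inside a long domain and the line is all other autosomal windows. Of those 185, 30.3% have no CG.

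Domain coverage by list, the percent of a domain that lay in called peaks, had a different course in domains than in shorter regions. Its median was 86.6% in the E13.5 het list and 93.5% in the E13.5 KO list, 96.5% and 94.55% at E16.5, 84.6% and 86.5% at P0, and 70.7% and 76.0% at P3. Both genotypes were highest at E16.5 and lowest at P3, but in KO the E13.5 median was close to that of E16.5. In domains of at least 50 kb the KO median was highest at E13.5 instead, at 97.4% against 95.9% at E16.5. In the regions of 10 to 30 kb the medians were 42.1% and 46.55% at E13.5, 86.7% and 81.0% at E16.5, 84.2% and 84.9% at P0, and 74.8% and 78.2% at P3. The long domains were therefore already largely covered at E13.5, when the shorter regions were not. Since the merge chose regions that were long in at least 1 list, that contrast is a property of the selection as well as of the stages.

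**Figure D2:**
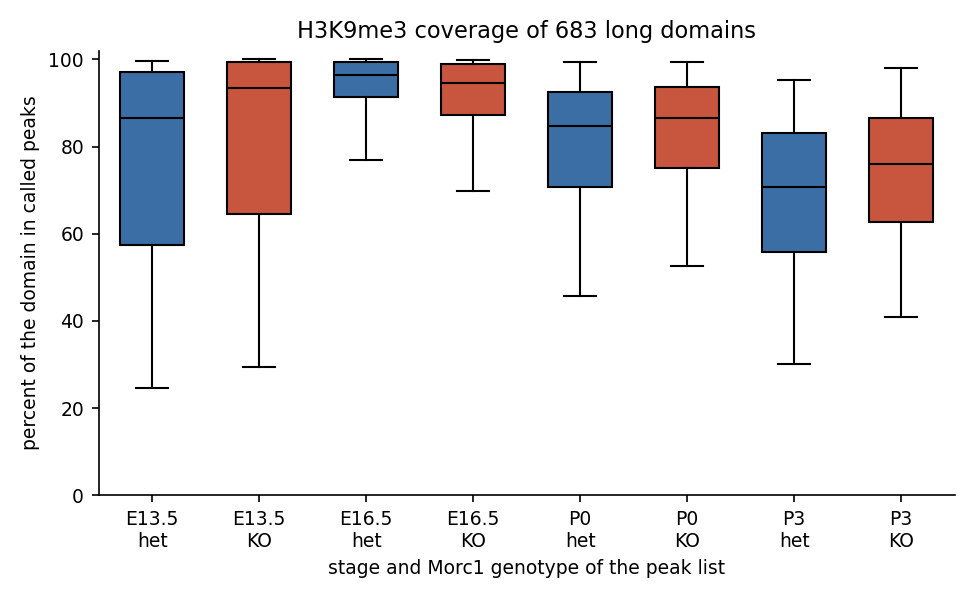
Percent of a domain in called peaks (vertical axis) for the 683 domains in each peak list (horizontal axis, stage and genotype; blue het, red KO). The box spans the quartiles, the line is the median and the whiskers reach the 5th and 95th percentiles; medians run from 70.7% (P3 het) to 96.5% (E16.5 het).

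The domains took a shrinking part of all called sequence. They held 14.9% and 13.9% of called autosomal length in the E13.5 het and KO lists, 9.83% and 10.4% at E16.5, 7.91% and 7.78% at P0, and 7.48% and 7.39% at P3. In length this was 23.8 and 25.3 Mb of 159.7 and 181.9 Mb at E13.5, and 20.8 and 22.4 Mb of 278.0 and 303.8 Mb at P3. The length called in domains was thus smaller at P3 than at E13.5 while the length called overall was larger.

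Coverage also became more broken. A single peak spanned at least 90% of the domain in 188 domains in the E13.5 het list and 285 in the KO list, in 375 and 305 at E16.5, in 108 and 141 at P0, and in 44 and 58 at P3. The median of the longest in each domain (het, then KO) was 22.7 and 29.9 kb for E13.5, 32.9 and 31.2 kb for E16.5, 20.7 and 23.6 kb for P0, and 15.3 and 17.5 kb for P3. In peaks of at least 30 kb the counts were 275 and 345, 449 and 403, 191 and 221, and 88 and 111. Except at E16.5, the KO list had more unbroken domains than the het list of its stage. Coverage was lower at the domain ends (the outer 10% on each side) than in the middle in every list, for example 66.3% against 74.1% in the P3 KO list. Merging peaks with different ends makes edges low by construction.

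Compared stage by stage, most differences ran the same way in het and KO. From E13.5 to E16.5, 324 domains (47.4%) were higher by at least 10 points in het and 252 (36.9%) in KO, beside 72.3 and 64.6 percent of all 7821 merged regions, and 20 (2.93%) and 63 (9.22%) were lower, beside 4.33 and 7.77 percent. From E16.5 to P0, 335 (49.0%) were lower in het and 274 (40.1%) in KO, beside 31.8 and 26.5 percent, and 41 and 52 were higher, beside 29.4 and 33.9 percent. From P0 to P3, 371 (54.3%) were lower in het and 290 (42.5%) in KO, beside 44.6 and 37.6 percent. Higher by as much from P0 to P3 were 15 in het and 26 in KO, beside 12.8 and 15.2 percent. The long domains were thus less often higher at E16.5 than E13.5, and more often lower after it, than merged regions at large. Median domain coverage at E13.5 was 86.6% in het and 93.5% in KO, against 42.1% and 46.55% in the regions of 10 to 30 kb. The domains therefore had less room to rise. The part of this, and of region length, in the shares was not tested.

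Over the whole period, 282 domains (41.3%) were at least 10 points lower at P3 than at E13.5 in both genotypes, beside 16 percent of all merged regions, and 91 (13.3%) were higher, beside 49.8 percent. From E16.5 to P3, 427 (62.5%) were lower in both genotypes, beside 34.5 percent, and 12 (1.76%) were higher, beside 17.4 percent. The highest stage in het was E13.5 in 170 domains, E16.5 in 386, P0 in 107 and P3 in 20. In KO it was E13.5 in 260, E16.5 in 305, P0 in 89 and P3 in 29. P3 was the lowest stage in 450 domains in het and 442 in KO. The highest and lowest stage are given for the domains only, so these counts cannot be set against merged regions at large.

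By their coverage at E13.5 the domains fell along a range that was divided into 3 parts for description. At least 90% coverage in both genotypes was reached by 286 domains (41.9%), with no background share for this count. Under 50% in both lay 99 (14.5%, beside 47.8 percent of all merged regions), and 298 lay between. The share under 50% was 5.26% among domains of at least 50 kb and 22.6% when peaks up to 5 kb apart were joined. The 99 domains with little coverage at E13.5 had medians of 31.0% and 34.7% then, 92.05% and 83.0% at E16.5, 72.1% and 75.8% at P0, and 49.5% and 61.6% at P3. Those covered at E13.5 had 98.6% and 99.5%, 97.5% and 97.05%, 90.9% and 91.1%, and 80.8% and 83.5%. The groups therefore stood far apart at E13.5, by choice, and still stood apart at P3, which the division did not use. The P3 lists had nonetheless helped to choose the domains, so the P3 values are not free of the selection. Median length was 42.1 kb in the covered domains and 35.2 kb in those under 50%. Gene bodies made up 10.3% of base pairs in the covered domains and 4.87% in the others. Of the 72 domains on chromosome 7, 53 were in the covered part, 17 between and 2 under 50% in both genotypes. All 10 immunoglobulin, 11 of 13 Skint, 14 of 19 type 2 vomeronasal and 17 of 32 olfactory receptor domains were in the covered part, beside 41.9% of all domains.

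**Figure D3:**
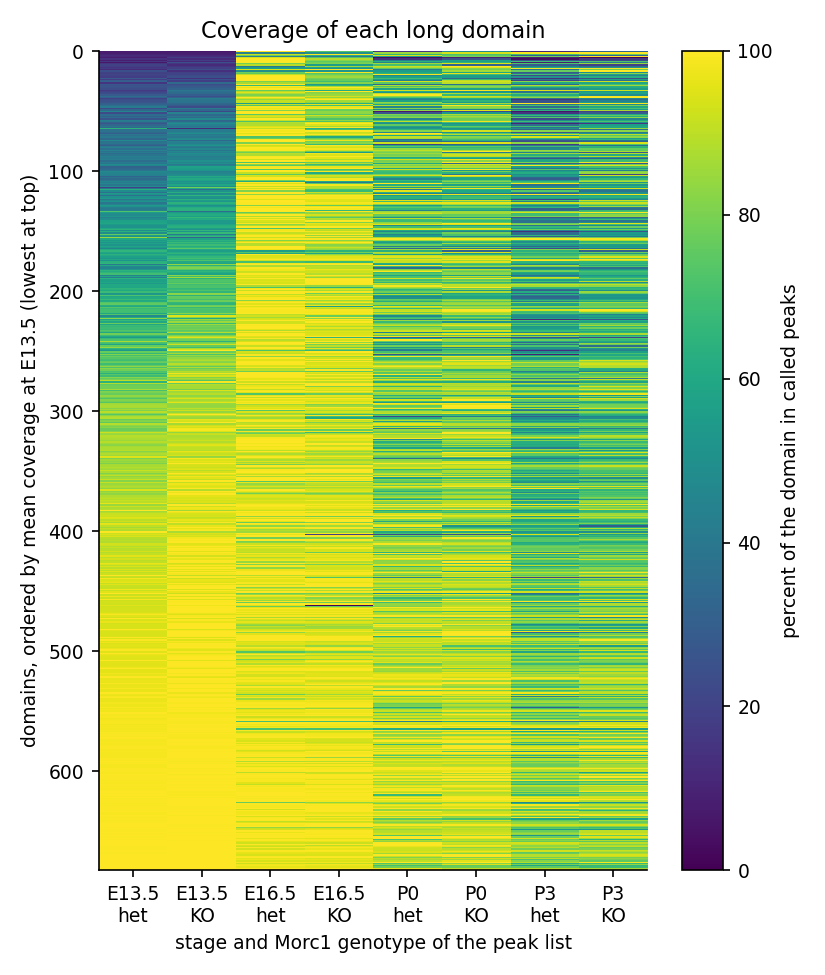
Percent of each domain in called peaks (colour, 0 to 100) for the 683 domains (rows, ordered by mean coverage at E13.5) in the 8 peak lists (columns). Domains with low coverage at E13.5 lie at the top; the 99 under 50% then in both genotypes have a median of 92.05% in the E16.5 het list.

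Coverage of at least 80% in all 8 lists was found in 147 domains (21.5%), beside 8.95 percent of all merged regions, and of at least 50% in 473 (69.3%), beside 34.6 percent. The share with at least 80% was 11.45% when peaks up to 5 kb apart were joined. The 3 with the highest lowest value were chr8:52067654-52097676, chr9:26103536-26139981 and chr8:19397545-19432869. They had 99.2% to 99.8%, 98.9% to 99.9% and 98.6% to 99.7% over the 8 lists and 1 peak in each list. The first 2 lie between Tenm3 and Aga and between Eepd1 and B3gat1, and the third beside the beta-defensin genes Defb3 and Defb8, antimicrobial peptide genes. At the other extreme, 14 domains (2.05%, beside 2.88 percent) had at least 80% at E16.5 and under 50% at E13.5 and P3 in both genotypes. The widest of them, chr3:76914935-76949607 next to Fstl5, had 14.1% and 12.3% at E13.5, 99.8% and 88.4% at E16.5, 13.4% and 24.9% at P0, and 3.70% and 16.2% at P3. Its peaks covered nearly all of the domain at E16.5 alone. The 100 kb to its left and right also had their highest coverage at E16.5 (62.0% and 68.7% in het), so the stage pattern was not limited to the domain.

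Some domains were higher at P3 than at E13.5. A difference of at least 10 points in both genotypes was found in 91 (13.3%), beside 49.8 percent of all merged regions. At chr4:5112062-5143572, between Bpnt2 and Fam110b, coverage was 7.44% and 8.36% at E13.5, 43.7% and 50.7% at E16.5, 85.3% and 93.4% at P0, and 98.8% and 100% at P3. At chr10:37985589-38023488, between Marcks and Rfpl4b, it was 4.39% and 7.07% at E13.5 and 95.3% and 91.8% at P3. At chr7:50202314-50232687, inside Nell1, which encodes a secreted protein of bone formation, it was 17.5% and 18.1% at E13.5 and 99.6% and 99.8% at P3. These 3 were chosen for the largest increase from E13.5 to P3 in both genotypes. Those chosen for the largest decrease were over the olfactory receptor gene Olfr869 (chr9:20121435-20153772, 90.8% and 100% against 20.9% and 35.7%), over Cyp3a59 (chr5:146072534-146124418, 93.9% and 100% against 29.9% and 44.0%) and over Ighv1-23, Ighv1-24 and Ighv1-26 (chr12:114758994-114794631, 99% and 98.9% against 43.6% and 46.3%).

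The comparison of het with KO asks what the loss of Morc1 does to the domains. The median difference, het minus KO, was -2.68 percentage points at E13.5 and 0.39 at E16.5, then -1.97 at P0 and -4.81 at P3, so the typical domain was covered slightly more in KO at 3 stages and about equally at E16.5. Outside the domains the called length ran the same way: KO had 1.15 times the het length at E13.5 and 0.912 at E16.5, then 1.05 at P0 and 1.09 at P3, and inside them 1.06, 0.972, 1.03 and 1.08 times. The part of list depth and calling in these differences was not tested.

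A difference of at least 10 points toward het was found in 25 domains (3.66%) at E13.5 and 76 (11.1%) at E16.5, then 53 (7.76%) at P0 and 39 (5.71%) at P3, beside 6.94, 21.2, 18.0 and 16.3 percent of all merged regions. Toward KO the numbers were 160 (23.4%), 10 (1.46%), 118 (17.3%) and 198 (29.0%), beside 23.1, 6.67, 24.4 and 31.1 percent. At E13.5 and P3 the KO shares were therefore near the background. At the remaining stages, and for het at each stage, the domains had fewer such differences than merged regions at large. Of those 7821 regions, 7138 were shorter than 30 kb, and there 10 points are fewer base pairs than in a domain. The part of length in these shares was not tested. Within 10 points lay 498 domains at E13.5 and 597 at E16.5, then 512 at P0 and 446 at P3.

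**Figure D4:**
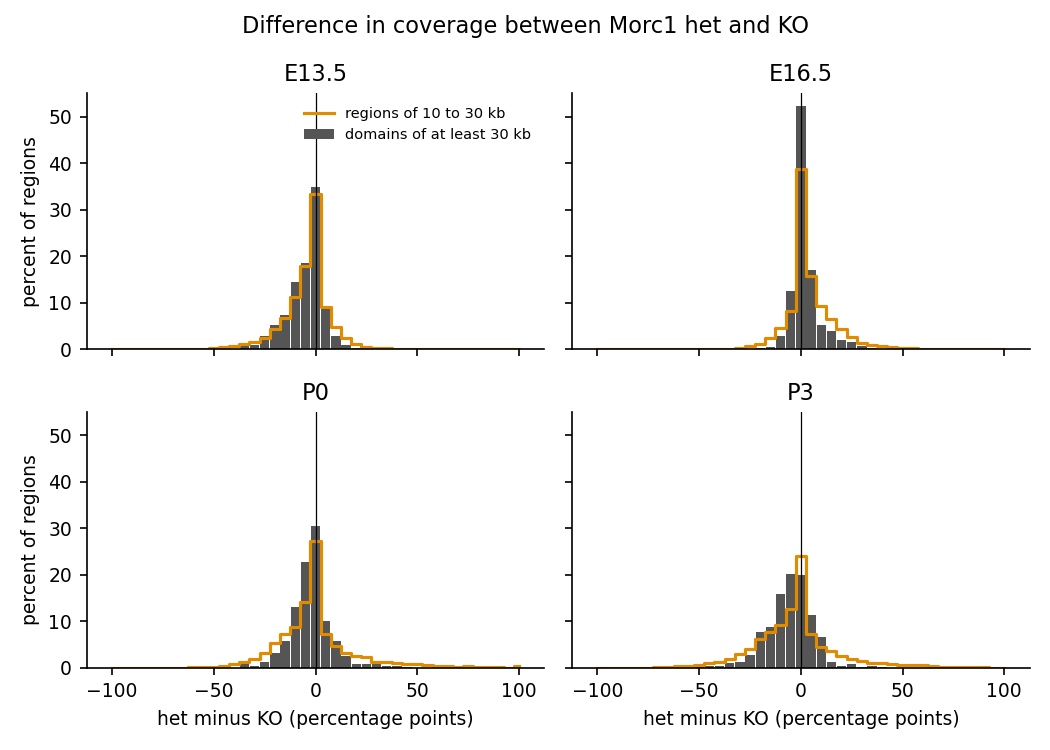
Distribution of the difference in coverage, het minus KO in percentage points (horizontal axis), as percent of regions (vertical axis) at each stage. Bars are the 683 long domains and the line the 7138 regions of 10 to 30 kb; the domain medians are -2.68, 0.39, -1.97 and -4.81 points in order of stage.

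Because each list helped to choose the domains, the differences were also read in domains defined without the lists of the stage measured. Without the E13.5 lists 638 domains remained, with a median difference of -1.61 points at E13.5, and KO was higher by at least 10 points in 22.1%. Without the E16.5 lists 512 were found, the median was 0.13, and 5.27% were higher in het and 0.586% in KO. For P0 (613 domains) the median was -2.01, and for P3 (663 domains) -4.84 with 28.8% higher in KO. The direction of each median was the same as before, and the E16.5 share toward het was 5.27% in place of 11.1%.

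Few domains differed by at least 10 points in the same direction at several stages. Both at P0 and at P3, het was higher by at least 10 points in 18 domains (2.64%, beside 10 percent) and KO in 64 (9.37%, beside 13.0 percent). In 10 domains (1.46%) het was higher at P0 and KO at P3, and in 2 (0.293%) the reverse, with no background share for these. With any amount counted, het was higher at both P0 and P3 in 112 domains (16.4%, beside 22.8 percent) and KO in 326 (47.7%, beside 45.0 percent). Both at E13.5 and at E16.5, het was higher by at least 10 points in 10 domains (1.46%, beside 1.97 percent) and KO in 7 (1.02%, beside 1.76 percent), and by any amount in 113 (beside 19.7 percent) and 203 (beside 22.9 percent). No domain differed by 10 points in 1 direction at all 4 stages, beside 0.141 and 0.205 percent of merged regions. By any amount, het was higher at all 4 stages in 19 domains (2.78%, beside 4.87 percent) and KO in 91 (13.3%, beside 10.6 percent).

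Among domains higher in het at both P0 and P3, the first by rank was chr6:16349075-16391293 between Mdfic and Tfec, genes of a transcriptional regulator and a transcription factor. Its coverage was 48.5% in het and 51.4% in KO at E13.5, 80.7% and 67.4% at E16.5, 95.9% and 59.8% at P0, and 74.0% and 38.7% at P3. The genotypes were alike at E13.5 and apart at the later stages. At chr15:3170401-3210237, whose nearest gene to the right is Selenop, a selenium transport protein gene, P0 had 62.8% and 32.85% and P3 63.7% and 30.9%. At chr1:49726345-49771915 the values were 80.9% and 39.8% at P0 and 49.5% and 20.1% at P3. At chr4:121360148-121393048, between Gm12888 and Gm12886, they were 98.45% and 51.0% at P0 and 56.3% and 29.4% at P3. The P3 gap of 26.9 points was 16.4 when each list was cut to the same number of its longest peaks. In this domain and the one before it, the E13.5 and E16.5 values were within 6 points between genotypes.

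The reverse order was led by chr12:93805286-93835898, in the gene desert between Gm40892 and Flrt2, an adhesion molecule gene. It had 12.2% in het and 24.1% in KO at E13.5, 93.9% and 99.3% at E16.5, 42.3% and 78.2% at P0, and 37.3% and 77.4% at P3. At chr1:8314786-8367435, inside Sntg1, a syntrophin gene expressed in neurons, the values were 18.9% and 20.3% at E13.5, 74.8% and 73.85% at E16.5, 65.2% and 96.3% at P0, and 37.4% and 82.1% at P3. In both domains the het list was lower after birth than at E16.5. The KO list was also lower after birth in the first domain (99.3%, then 78.2% and 77.4%). In the second it was higher (73.85%, then 96.3% and 82.1%). At chr8:19545312-19597853 near Defb7, KO was higher by 46.8 points already at E13.5 (53.2% against 100%), and by 27.5 at P0 and 29.4 at P3, but not at E16.5 (71.3% against 66.5%). At chr10:82268827-82304525 near the zinc finger gene Zfp938, the values were 56.0% against 86.3% at P0 and 76.9% against 99.65% at P3.

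**Figure D5:**
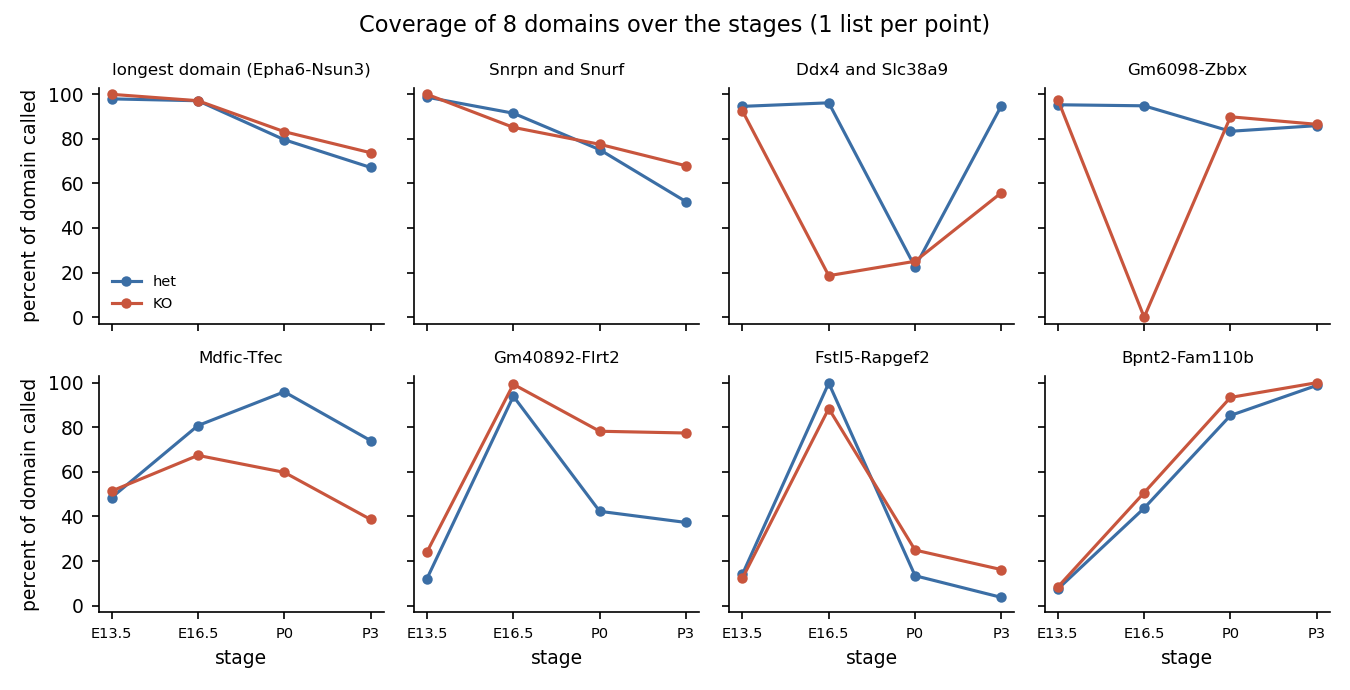
Percent of the domain in called peaks (vertical axis) by stage (horizontal axis) for 8 domains; each point is 1 peak list, blue het and red KO, with no replicates. The Ddx4 and Gm6098-Zbbx domains are at 18.6% and 0.00% in the E16.5 KO list, and the Mdfic-Tfec and Gm40892-Flrt2 domains separate the genotypes at P0 and P3.

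At single stages the largest gaps were wider. At E13.5, chr8:50753096-50808119 had 19.9% in het and 78.8% in KO, and chr15:69759102-69789697 had 64.7% and 12.4%. At P0, chr10:104316094-104346658 had 42.0% and 89.6%. At P3, chr15:13612912-13645107, between Cdh6 and Cdh9, had 18.1% and 71.75%, and chr10:11456670-11488090, inside Epm2a, the gene of a glycogen phosphatase, had 71.7% and 35.8%. The order of the genotypes could turn between stages: chr8:50753096-50808119 had, at E16.5, 100% in het and 89.7% in KO, and chr15:69759102-69789697 had 90.8% and 64.05% at E16.5 but 48.9% and 84.6% at P3.

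The largest gaps of all were at E16.5. The region chr3:74642958-74722758 (79.8 kb), 311.0 kb from Gm6098 and 315.1 kb from Zbbx, had 95.3% and 97.6% at E13.5, 94.8% and 0.00% at E16.5, 83.4% and 89.9% at P0, and 85.9% and 86.5% at P3. It had no called base pair in the E16.5 KO list and at least 83.4% in each of the other 7. At that stage the 100 kb on its left had 63.3% in het and 61.7% in KO, and those on its right 83.8% and 84.0%, so the absence ended at the edges of the domain. The list gives no signal value there, so a missing call cannot be told apart from a region left out of calling.

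The other, chr13:112597967-112713340 (115.4 kb), held all of Ddx4 and overlapped Slc38a9, an amino acid transporter gene of the lysosome. Coverage was 94.5% and 92.5% at E13.5, 96.1% and 18.6% at E16.5, 22.5% and 25.1% at P0, and 94.8% and 55.8% at P3. The 3 lists from E13.5 and E16.5 het were alike, both P0 lists and the E16.5 KO list were low, and P3 het was high again. The E16.5 gap of 77.5 points and the P3 gap of 39.0 points were the second largest and the largest toward het at their stages. Of its flanks, at most 18.2% of the left and 5.14% of the right 100 kb were called in any list. The mean over the lists for the span of chromosome 13 was 10.1%. The CG-rich Ddx4 window printed above was wholly called in 7 lists and had no called base in the E16.5 KO list, and the Slc38a9 window was wholly called in the E13.5 lists, E16.5 het and P3 het, and had 0, 0, 7 and 0% in E16.5 KO, P0 het, P0 KO and P3 KO. Ddx4 is the gene from which the Mvh-Venus reporter takes its name. How much of this locus the transgene contains is not given in the sources used here, and reads of a transgene copy and of the native locus cannot be told apart in the lists.

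Apart from the Ddx4 domain, each of the 10 longest domains had less coverage at P0 and P3 than at E13.5 and E16.5, genotype by genotype. The longest of all, chr16:61379501-61558901 (179.4 kb) between Epha6 and Nsun3, was nearly 1 piece at E13.5 and E16.5 (97.1% to 99.9% over 4 lists, 1 to 3 peaks) and was split into 9 to 16 peaks later. Its P3 coverage was 67.15% in het and 73.75% in KO. The next, chr15:14541741-14698525 (156.8 kb) between Cdh6 and Cdh9, had 83.0% or more in every list. At chr12:6910751-7026146 (115.4 kb) between Klhl29 and Apob the genotypes differed at 3 stages in changing directions: 59.55% against 93.5% at E13.5, 92.15% against 79.9% at E16.5 and 43.15% against 58.2% at P0. The domain of 5 immunoglobulin segments, chr12:114943784-115069254 (125.5 kb), had 83.5% or more in every list.

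At the Snrpn and Snurf domain, chr7:59918574-60050772 (132.2 kb), coverage was 98.65% and 99.9% at E13.5, 91.5% and 85.1% at E16.5, 75.1% and 77.5% at P0, and 51.8% and 67.9% at P3. It was thus lower at each later stage in both genotypes, and the P3 gap of 16.1 points toward KO was its largest. The 3 Snrpn windows printed above behaved differently. The first (7 CG) was wholly called in both E13.5 lists and had no called base in the 6 later lists. The second (4 CG) was wholly called in all 8. The third (3 CG), which lies in the neighbouring domain chr7:60069867-60155861, was wholly called in the 4 E13.5 and E16.5 lists and in P0 KO, and not called in P0 het or either P3 list.

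The 9 Mir344 hairpins lay in 6 domains between chr7:61626360 and chr7:62114008, and these resembled each other closely. Coverage in the E13.5 lists was 97.1% to 100%, in the E16.5 lists 94.1% to 98.9%, and in the P0 lists 88.3% to 99.3%. At P3 it was 75.9% to 93.2% in het and 80.7% to 93.4% in KO. The largest was chr7:61859682-61962910 (103.2 kb), with Mir344 and Mir344-2, at 77.2% in het and 86.25% in KO at P3. The domain of Mir344c, chr7:61802600-61844802, had the opposite order at P3, 93.2% in het and 85.5% in KO. The 4 Mir344 hairpins outside domains, Mir344d-3, Mir344e, Mir344h-1 and Mir344h-2, lay together between 2 of the domains.

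The gene starts followed their domains. All 300 bases were called in 156 and 155 of the 185 windows in the E13.5 het and KO lists, in 169 and 168 at E16.5, in 149 and 151 at P0, and in 131 and 143 at P3. The mean share of a window called was 84.9% and 85.2% at E13.5 and 72.7% and 79.4% at P3, against mean domain coverage of 84.5% and 88.7%, and 70.9% and 75.5%. Gene starts were thus called about as often as the sequence around them. The domain of Olfr1496 and Olfr1497, chr19:13777374-13814441, was higher in KO at all 4 stages: 38.4% against 57.3%, 78.7% against 100%, 67.2% against 75.7%, and 50.7% against 82.4%. Its Olfr1497 window printed above was wholly called in the E16.5 and P3 KO lists and uncalled in the other 6. The Vmn2r108 window was wholly called in all 8 lists, and its domain chr17:20396738-20509265 (112.5 kb) had 81.8% or more in each.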

How the data were processed

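The deposited data were 8 lists of H3K9me3 peaks, 1 for each genotype and stage. Per the file contents, their unit is other than a signal: the authors deposited, for each peak, a chromosome and 2 positions in base pairs, with no score or p-value. The series has 32 samples in groups of 2, 16 of them H3K9me3 samples and the rest H3 samples, which enter no comparison here. Per the submitters' processing notes, bcl2fastq 2.20, cutadapt 1.18, Bowtie2 2.3.4.1, deepTools 3.5.0, HOMER 4.10 and build mm10 were named. The peak caller's settings, the use of H3 as control, the pooling of replicates and the placing of reads from repeats are not given in the sources used here, and depth is unknown.

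Peaks of at least 10 kb on the 19 autosomes were merged over the lists where they shared at least 1 bp, and merged regions of at least 30 kb were kept. Coverage is the percent of a region inside all peaks of a list. A difference counted from 10 percentage points, and the background is the same count over the 7821 merged regions. Coordinates are 1-based, on mm10. Genes, promoter windows and microRNAs came from RefSeq tables of GRCm38.p6, the same build. Named regions are the 10 longest, those with the largest differences by genotype or stage, those with the widest and narrowest range, and those at the threshold. Genes chosen after their values were seen are the neighbours and single genes named outside the listed families. The members and gene lists were chosen with earlier results of these data known. Python 3.11.15, numpy 2.4.6, pandas 2.3.3 and matplotlib 3.10.9 were used, and the merging and coverage code was tested on simulated data. Alternatives were other peak and region lengths, a gap of 5 kb, a difference of 20 points, and domains defined without the lists of a stage.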

Additional observations from a re-analysis of the deposited data

Results flagged for a closer look

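The median difference in domain coverage between the genotypes, het minus KO, did not point the same way at every stage. It was -2.678 percentage points at E13.5 and 0.393 at E16.5, then -1.969 at P0 and -4.809 at P3, so E16.5 stood apart from the other stages. With 1 list per group the difference between stages was not tested. The length called outside the domains was also larger in het than in KO at E16.5 alone.

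Chromosome X was outside the rule. The same steps found 6 regions of at least 30 kb there, or 0.353 per 10 Mb, fewer than on any autosome, where chromosome 11 had the lowest number at 0.656. The longest, chrX:44163139-44197651, measured 34.5 kb. Male cells have 1 X chromosome, and the part of that in the low number was not tested. The 6 regions had median coverage of 56.6% in het and 67.4% in KO at E13.5, 92.2% and 96.7% at E16.5, 71.2% and 82.5% at P0, and 44.4% and 63.4% at P3. At P3, 4 of them were at least 10 points higher in KO and none in het, beside 31.1 and 16.3 percent of all autosomal merged regions. No such region was found on chromosome Y.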

How the results depend on the processing

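Each group has 1 list, so neither replicate error nor a test could be had, and depth, threshold and the pooling of animals limit every value. No paired analysis was possible because the lists carry no replicates, and leaving out a replicate was not possible for the same reason. No het minus KO difference turned its direction under any alternative run. Shares and coverage medians cannot change sign, but the order of the stages did change. With peaks up to 5 kb apart joined, E13.5 medians fell below P0 medians, at 68.59% against 78.59% in het and 78.21% against 80.38% in KO. In domains of at least 50 kb, the E13.5 KO median (97.4%) was above that of E16.5 KO (95.9%). Alternatives for the gene and named-region values, and equal peak numbers per list, were chosen after seeing the data. With the 50191 longest peaks of each list, 74 of 78 named differences of at least 10 points stayed at or above 10 and 4 did not, at -9.40 (chr7:60817581), -5.65 (chr10:104316094) and -5.33 (chr7:41915385) at P3 and -8.57 (chr15:13612912) at P0. The gaps at chr4:121360148 at P3 (26.88 to 16.36) and chr5:9985437 at E13.5 (-18.19 to -11.39) shrank by over 1.5 times.

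With peaks of at least 20 kb, median coverage was 88.99% and 94.95% at E13.5 and 97.63% and 95.29% at E16.5 in het and KO, and 4.153% of domains were higher in het at P3. Regions of at least 50 kb numbered 171 with 11.74 Mb, and their medians were 94.11% and 97.4% at E13.5 and 95.9% in E16.5 KO. Their shares higher in het were 1.754% at E13.5, 1.754% at P0 and 3.509% at P3, those higher in KO 19.88%, 0.5848% and 14.04% at E13.5, E16.5 and P0, and the P3 median difference was -5.829 points. Of these, 26.32% had at least 80% in all lists, 5.263% were under 50% at E13.5 and 26.32% overlapped a gene. Joining peaks up to 5 kb apart gave 1039 domains of 56.19 Mb, medians of 68.59%, 78.21%, 90.18%, 87.3%, 78.59%, 80.38%, 66.22% and 70.93% (het then KO, by stage) and an E16.5 difference of 0.9225, with 11.45% at 80% in all lists and 22.62% under 50% at E13.5. From 20 points, 1.171%, 4.392%, 3.075% and 1.464% were higher in het and 7.76%, 0.4392%, 3.807% and 9.956% in KO, by stage. In domains defined without the stage measured, the median difference was -1.606 at E13.5 and 0.1283 at E16.5, where 5.273% were higher in het and 0.5859% in KO. The cause of these shifts was not tested.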

Other observations

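Several domains held genes of small families that the lists above do not cover, and they were picked after their values were seen. The placental cathepsin genes Ctsq, Ctsr and Cts7 lay in 3 domains of chromosome 13. Ctsq had 85.0% in het and 97.3% in KO at E13.5 and 81.0% and 79.4% at P3, Ctsr had 89.4% and 98.3% and then 72.4% and 74.2%, and Cts7 had 81.9% and 91.5% and then 68.0% and 73.0%. All 3 were more covered in KO at E13.5, as were 505 of all 683 domains. The exocrine gland peptide genes Esp36, Esp34 and Esp23, which encode pheromones, lay in 3 domains of chromosome 17 with at least 92.45% in the E13.5 lists and 72.8% to 88.3% at P3.

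Nlrp5, a gene of the egg's maternal effect complex, lay in a domain of 90.5 kb on chromosome 7 with 89.0% and 100% at E13.5, 88.8% and 76.7% at E16.5, 64.6% and 69.35% at P0, and 48.1% and 56.4% at P3. The domain over Kcnq1, a potassium channel gene within an imprinted cluster, had 98.2% and 99.8% at E13.5, 71.3% and 70.8% at E16.5, 61.3% and 59.2% at P0, and 53.8% and 56.8% at P3. Its genotypes lay close together at every stage. Defb41, an antimicrobial peptide gene, went the other way, with 59.8% and 63.55% at E13.5 and 94.6% and 99.4% at P3.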
